A study of Homo sapiens with 6 samples.

Results

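ZNF395 hairpin 1 was compared with the non-targeting control in 786-O and A-498, human lines of clear cell renal cell carcinoma, the commonest cancer of the kidney. The comparison uses 4 of the 6 libraries of the study, chosen by construct: the control and hairpin 1 of each line. The cells have no functional VHL, a tumour suppressor, in either line, and were transduced with retroviral short hairpin RNAs from the MISSION collection and selected with puromycin. The control cells carry a hairpin construct and passed through selection too, so every library comes from transduced, drug-selected cells, and HEK293T, a line from human embryonic kidney, packaged the virus. The other 2 libraries carry ZNF395 hairpin 3 in the same lines. Each line and construct has 1 library, so the lines serve as the replicates of a construct (n = 2), and no spread between repeat cultures was measured. With 1 hairpin, the loss of ZNF395 and any other effect of that reagent cannot be told apart. Hairpin 3 values are therefore given beside called genes and beside some of the uncalled genes and lists.

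ZNF395 encodes a zinc finger protein that moves between cytoplasm and nucleus, binds DNA, and has been tied in other cells to IkB kinase signalling, hypoxia and the induction of interferon-stimulated and inflammatory genes. NF-kB dimers drive cytokine, chemokine and survival genes from short promoter sites, and the inhibitor IkB alpha and the deubiquitinase A20 are themselves NF-kB targets that limit the response. Interferons act through transcription factor complexes on the interferon response element, which lies in front of antiviral genes such as the OAS, MX, IFIT and GBP families. In clear cell carcinoma, lost VHL leaves hypoxia-inducible factors active, so that their targets in collagen modification, pH control and angiogenesis are high at rest.

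Because 11 NF-kB and 6 interferon-stimulated genes were at least 2-fold higher in both lines, 6 of their promoter stretches are shown first. They belong to the genes among these that hold the searched letters within 250 bases before the RefSeq start, so their choice rests on these data. For NF-kB the letters were GGGANNTTCC, and for the interferon response element GAAANNGAAA, each searched on both strands. Sequences are from RefSeq on GRCh38.p14, run 5′ to 3′ on the gene's own strand, and have the match in capitals.
IL6, chr7:22727107-22727156, plus strand: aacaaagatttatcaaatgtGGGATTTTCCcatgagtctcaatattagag
CXCL3, chr4:74038739-74038788, minus strand: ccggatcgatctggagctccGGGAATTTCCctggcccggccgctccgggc
TNFRSF9, chr1:7940884-7940933, minus strand: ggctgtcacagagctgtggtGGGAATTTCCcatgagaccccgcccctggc
CXCL10, chr4:76023689-76023738, minus strand: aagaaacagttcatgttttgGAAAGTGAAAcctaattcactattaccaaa
IFITM1, chr11:313980-314029, plus strand: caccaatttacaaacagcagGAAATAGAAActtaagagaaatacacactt
GBP1, chr1:89065306-89065355, minus strand: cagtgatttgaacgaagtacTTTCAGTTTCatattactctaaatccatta
The NF-kB letters end 64, 70 and 65 bases before the start in IL6, CXCL3 and TNFRSF9. In GBP1 the interferon letters lie on the opposite strand, so they read there as their reverse complement. Of 11 NF-kB genes at least 2-fold higher in both lines, 8 had a RefSeq promoter and 3 held the letters, against 18 of 36 (50.0%) in the whole list and 1.4% of 35116 promoters. Of 6 such interferon-stimulated genes, 4 had a promoter and 3 held the letters, against 30 of 46 (65.2%) in the list and 3.02% of all promoters. For the 2-fold genes only the first listed promoter was searched, while a list member counted if any of its promoters held the letters. The lists also include the 2-fold genes, so these shares are not counted alike and nothing is read from comparing them. A match is a run of letters, not a measured binding site.

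Levels are given in CPM, counts scaled to library size with TMM factors, and differences as log2 values. Libraries of the 4 held 77534125 to 99147218 counts, with 5.41 to 8.21% from mitochondrial DNA. Renal epithelial markers (8 of 8 above 1 CPM in at least 1 library) summed to 1289 and 1030 CPM in the control and hairpin 1 libraries of 786-O. In A-498 they summed to 1915 and 1631. The keratin KRT8, at 589 to 1325 CPM, made up most of each sum, and PAX8 stood at 181 to 256. Of the clear cell carcinoma markers 7 of 8 passed 1 CPM in at least 1 library. The list summed to 2626 and 2859 CPM in 786-O and to 1818 and 2031 in A-498. The defining CA9 passed 1 CPM only in the A-498 control. It was at 0.0126 and 0 CPM in 786-O and at 1.17 and 0.399 in A-498. Endothelial markers summed to 1.21 to 3.48 CPM (2 of 9 above 1), leukocyte markers to 0.784 to 3.99 (1 of 11) and fibroblast markers to 12.5 to 46.6 (4 of 10). PTPRC, the defining leukocyte gene, was at 0.0128 to 0.0903 CPM in all 4, the endothelial VWF at 0 to 0.0499 and the fibroblast DCN at 0 to 0.0499. DCN does not stand for its list, of which 4 of 10 passed 1 CPM. PDGFRB, at 2.29 and 1.25 CPM in 786-O and at 0.792 and 0.474 in A-498, does not stand for it either. The fibroblast list summed to 13.5 and 12.5 CPM in 786-O and to 40.4 and 46.6 in A-498, so other members made up most of it. HEK293-associated markers summed to 283 and 261 CPM in 786-O and to 465 and 392 in A-498, mostly from NEFL (242 to 398 CPM), with LIN28B at 0 to 0.0128. In bulk RNA, fewer cells of a kind and less RNA per cell cannot be told apart.

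ZNF395, the targeted gene, fell with hairpin 1 in both lines. It stood at 96.3 CPM in the control of 786-O and 24.7 with hairpin 1, and at 67.9 and 14.5 in A-498 (log2 fold change -2.08, SE 0.209, adjusted p = 0.0269). Both hairpin 1 libraries lay under both controls. With hairpin 3 it stood at 13.5 and 14.3 CPM, and the hairpins were not shown to differ (adjusted p = 0.217). The gene lies at chr8:28345585-28402701 on the minus strand (GRCh38) and shares exon sequence with FBXO16 on the same strand, which was at 2.20 and 2.45 CPM in 786-O and 3.22 and 2.87 in A-498.

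Over 20144 genes, 8 rose (0.0397%) and 22 fell (0.109%) with hairpin 1 at an adjusted p under 0.05 in edgeR's quasi-likelihood test with line and construct in the model. Fold changes ran from -2.56 to -1.11 among genes that fell and from 1.17 to 3.06 among those that rose, on the log2 scale. The genes that fell include members of membrane trafficking, adhesion, glycan synthesis and the cell cycle, and those that rose include a cytokine, a guanylate-binding protein, a lysosomal protease and a prostaglandin receptor. The count depended on the settings: the 4 libraries alone gave 524 genes, a model without the line 0 (146 at an unadjusted p under 0.05), and DESeq2 466. Of the 30 genes, 11 were still called without the 786-O control, 9 without 786-O hairpin 1, 1 (ANXA5) without the A-498 control and 20 without A-498 hairpin 1, while all 30 were still called without either hairpin 3 library.

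**Figure D1:**
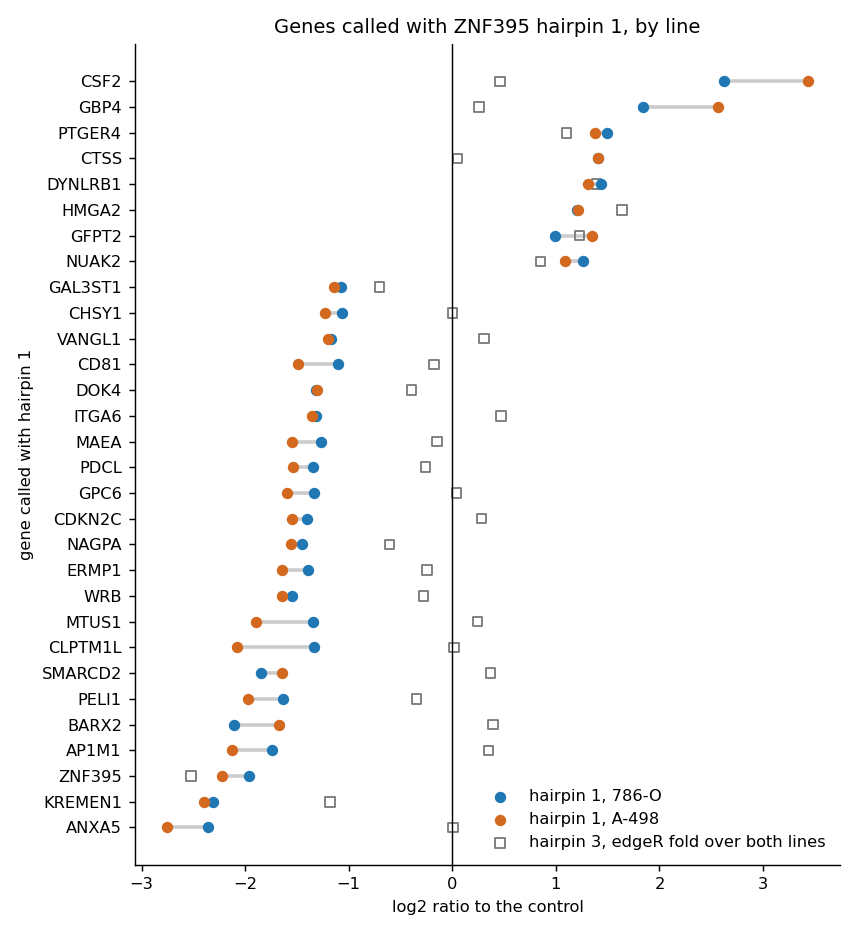
Log2 ratio of hairpin 1 over control in 786-O (blue) and A-498 (orange), 1 library pair per point, for the 30 genes with an adjusted p under 0.05, with edgeR's hairpin 3 fold over both lines as open squares. The points of both lines lie on the same side of 0 for each gene, close together for DOK4 and CTSS and apart for CSF2 and CLPTM1L, while most squares of the lower genes lie near 0, such as ANXA5 at 0.01.

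The largest decrease was in ANXA5 (chr4:121667955-121697113, minus strand), annexin A5, which binds phosphatidylserine on membranes in the presence of calcium. It fell from 565 to 110 CPM (786-O) and from 938 to 139 (A-498) (-2.56, SE 0.150, adjusted p = 0.0150). Both hairpin 3 libraries, at 604 and 887 CPM, lay with the controls. Some of the other called genes that fell also act in trafficking, and the wider lists around AP1M1 and WRB are given below. AP1M1 (chr19:16197578-16245907, plus strand), the medium subunit of the clathrin adaptor AP-1, went from 106 to 31.6 CPM (786-O) and from 60.2 to 13.8 (A-498) (-1.94, SE 0.143, adjusted p = 0.0170). Its hairpin 3 libraries, at 151 and 68.7 CPM, lay above the control of their line. WRB, now named GET1, is a receptor that inserts tail-anchored proteins into the endoplasmic reticulum, and it fell from 48.6 to 16.6 CPM and from 32.9 to 10.5 (-1.59, SE 0.127, adjusted p = 0.0215). NAGPA, which finishes the mannose 6-phosphate tag that sends enzymes to lysosomes, fell from 15.9 to 5.78 CPM and from 19.7 to 6.69 (-1.51, SE 0.153, adjusted p = 0.0274). Each control was above the hairpin 1 library of its line by more than 2-fold for all of these genes. With hairpin 3 WRB stood at 40.4 and 27.0 CPM and NAGPA at 10.5 and 12.9, between hairpin 1 and the control in each line.

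Membrane proteins of the endoplasmic reticulum and the surface made up a further group. ERMP1, a metallopeptidase of the endoplasmic reticulum, stood at 44.0 CPM in the control of 786-O and 16.8 with hairpin 1, and at 34.1 and 10.9 in A-498 (-1.51, adjusted p = 0.0427). CLPTM1L, a multipass membrane protein, stood at 201 and 79.7 CPM and at 346 and 82.2 (-1.72, adjusted p = 0.0464). CD81, a tetraspanin that organises partner receptors, stood at 253 and 118 CPM and at 239 and 85.1 (-1.30, adjusted p = 0.0464). For all 3 genes the drop was larger in A-498 than in 786-O, and the difference between lines was not tested. With hairpin 3 ERMP1 stood at 32.9 and 32.1 CPM, CLPTM1L at 257 and 284 and CD81 at 261 and 182. The hairpins differed for each (adjusted p = 0.0122, 0.00912 and 0.0118).

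Adhesion and polarity genes fell as well. ITGA6, the laminin-binding integrin alpha 6, fell from 50.6 to 20.3 CPM (786-O) and from 63.0 to 24.7 (A-498) (-1.33, SE 0.125, adjusted p = 0.0215). VANGL1, a planar cell polarity protein, fell from 82.4 to 36.5 CPM and from 57.0 to 24.8 (-1.19, SE 0.118, adjusted p = 0.0264). GPC6, a cell-surface heparan sulfate proteoglycan, fell from 50.8 to 20.1 CPM and from 98.5 to 32.7 (-1.47, SE 0.126, adjusted p = 0.0215). All 3 stood at or above the control with hairpin 3, at 75.5 and 80.7 CPM for ITGA6, 107 and 66.8 for VANGL1 and 53.9 and 98.7 for GPC6. KREMEN1 (chr22:29073078-29168333, plus strand), a Dickkopf receptor that dampens Wnt signalling, had the second largest decrease, from 28.7 to 5.76 CPM and from 23.7 to 4.49 (-2.36, SE 0.154, adjusted p = 0.0151). With hairpin 3 KREMEN1 stood between, at 13.4 and 9.87 CPM, and the hairpins differed (adjusted p = 0.0108).

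Glycan enzymes that fell were CHSY1 and GAL3ST1. CHSY1, which polymerises chondroitin, fell in 786-O (77 CPM in the control, 36.7 with hairpin 1) and in A-498 (36.6 and 15.6) (-1.15, adjusted p = 0.0308). With hairpin 3 CHSY1 stood at 81.5 and 34.8 CPM, and the hairpins differed (adjusted p = 0.00899). GAL3ST1, which adds the sulfate of sulfatide, fell from 315 to 149 CPM and from 92.3 to 41.9 (-1.11, adjusted p = 0.0308). GAL3ST1 and ZNF395 were the 2 genes of the 22 for which a difference between the hairpins was not shown (GAL3ST1 adjusted p = 0.0734), and GAL3ST1 stood at 196 and 56.2 CPM with hairpin 3.

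Genes of signalling, ubiquitin ligases and the nucleus formed the rest of the decreases. PELI1, a ubiquitin ligase of Toll-like and interleukin 1 receptor signalling, fell from 30.9 to 9.91 CPM (786-O) and from 44.6 to 11.3 (A-498) (-1.80, adjusted p = 0.0264). DOK4, a docking protein under receptor tyrosine kinases, fell from 83.3 to 33.6 CPM and from 106 to 43.0 (-1.31, adjusted p = 0.0215). PDCL, a chaperone of G protein beta-gamma subunits, fell from 49.5 to 19.4 CPM and from 44.7 to 15.3 (-1.44, adjusted p = 0.0215). In each of these genes both hairpin 1 libraries were under both controls. MAEA, a subunit of the CTLH ubiquitin ligase, fell from 98.0 to 40.8 CPM and from 82.1 to 28.1 (-1.41, adjusted p = 0.0215). MTUS1, a microtubule-associated protein, fell from 41.2 to 16.2 CPM and from 73.5 to 19.7 (-1.62, adjusted p = 0.0274). In the hairpin 3 libraries PELI1 stood at 21.9 and 38.5 CPM, DOK4 at 65 and 78.6 and PDCL at 41.9 and 36.9, all under the control of their line. MAEA stood there at 98.2 and 67.2 CPM and MTUS1 at 50.2 and 84.8. The hairpins differed for all of these genes, with adjusted p from 0.00760 for MTUS1 to 0.0105 for DOK4.

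CDKN2C, the p18 inhibitor of CDK4 and CDK6, stood at 126 CPM in the control of 786-O and 47.8 with hairpin 1, and at 69.2 and 23.6 in A-498 (-1.47, adjusted p = 0.0215). SMARCD2 (chr17:63832081-63843065, minus strand), a subunit of the SWI/SNF chromatin remodeller, stood at 97.9 and 27.2 CPM and at 83.8 and 26.9 (-1.74, adjusted p = 0.0167). The homeobox gene BARX2 was far lower in 786-O, at 1.45 and 0.319 CPM, than in A-498, at 11.1 and 3.47 (-1.87, adjusted p = 0.0473). Hairpin 3 gave levels above the control for CDKN2C (143 and 90.1 CPM), SMARCD2 (123 and 111) and BARX2 (1.84 and 15.1), on the opposite side from hairpin 1 in both lines.

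Of the increases, CSF2 (chr5:132073790-132076170, plus strand), the cytokine GM-CSF, had the largest fold. It rose from 0.898 to 5.66 CPM (786-O) and from 0.491 to 5.55 (A-498) (3.06, SE 0.285, adjusted p = 0.0215). GBP4 (chr1:89181148-89198932, minus strand), an interferon-induced guanylate-binding protein, rose from 1.66 to 5.99 CPM and from 14.3 to 84.7 (2.25, SE 0.209, adjusted p = 0.0215). CTSS (chr1:150730196-150765957, minus strand), cathepsin S, which trims the invariant chain in antigen-presenting cells, rose from 25.3 to 67.4 CPM and from 40.4 to 107 (1.41, SE 0.124, adjusted p = 0.0215). With hairpin 3 all 3 stood near the controls, at 1.07 and 0.807 CPM for CSF2, 1.89 and 17.7 for GBP4 and 24.5 and 44.6 for CTSS. The hairpins differed for CSF2 (adjusted p = 0.00899), GBP4 (0.00870) and CTSS (0.00760).

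The other 5 increases also rose with hairpin 3 by edgeR's test against the same controls, with adjusted p from 0.0075 (HMGA2) to 0.0225 (NUAK2). PTGER4, the prostaglandin E2 receptor EP4, rose from 6.69 to 18.9 CPM (786-O) and from 4.35 to 11.4 (A-498) (1.44, adjusted p = 0.0412). DYNLRB1 (chr20:34516409-34540958, plus strand), a dynein light chain, rose from 49.8 to 135 CPM and from 24.2 to 60.2 (1.38, adjusted p = 0.0215). HMGA2, an architectural chromatin protein and let-7 target, rose from 21.8 to 50.3 CPM and from 26.5 to 61.4 (1.21, adjusted p = 0.0260). These 3 stood at 15.5 and 8.66 (PTGER4), 134 and 62.2 (DYNLRB1) and 65.4 and 85.5 CPM (HMGA2) with hairpin 3. GFPT2, which commits glucose carbon to hexosamines, rose from 5.43 to 10.8 CPM and from 36.1 to 92.2 (1.18, adjusted p = 0.0473). NUAK2, a kinase related to AMPK, rose from 16.4 to 39.3 CPM and from 56.7 to 121 (1.17, adjusted p = 0.0495). With hairpin 3 GFPT2 stood at 11.8 and 91.0 CPM and NUAK2 at 34.0 and 88.8. A difference between hairpins was not shown for these 5, with adjusted p from 0.0650 for HMGA2 to 0.941 for DYNLRB1.

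Across the 30 genes, 23 differed between hairpin 3 and hairpin 1, 3 of the 8 that rose and 20 of the 22 that fell, against 9.48% of all genes tested. This contrast shares the hairpin 1 libraries that chose the genes, so nothing is read from that share. The hairpin 3 fold had the opposite sign for 11 of the 22 lower genes and for 0 of the 8 higher ones, with ANXA5 (0.01), CLPTM1L (0.02) and CHSY1 (0.00) close to 0, and both hairpins were set against the same controls. The annotation (GENCODE, GRCh38) places exon sequence of another gene over 12 of the 30, on the opposite strand for 11. The sources used here do not say whether counting used strand. DOK4 with POLR2C, ERMP1 with RIC1, MTUS1 with PDGFRL, NAGPA with ALG1 and WRB with LCA5L are therefore uncertain to that extent. WRB also shares exon sequence with WRB-SH3BGR on its own strand, which a strand setting would not separate. POLR2C stood at 82.3 and 83.5 CPM in 786-O and at 88.2 and 88.9 in A-498, and ALG1 at 25.2 and 24.6 and at 32.8 and 28.8.

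Beyond the test, size was read in each line alone. Of 13761 genes averaging 1 CPM or more, 58 were at least 2-fold higher in both lines (0.421%) and 51 at least 2-fold lower (0.371%), and of these 7 and 22 were also called. Within 786-O 145 genes were 2-fold higher and 192 lower, and within A-498 295 and 254. The log2 ratios of the lines, which share no library, had Pearson r 0.478 and Spearman rho 0.47 across genes, with 66.2% of the same sign. Genes are not independent replicates, so this is a description.

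**Figure D2:**
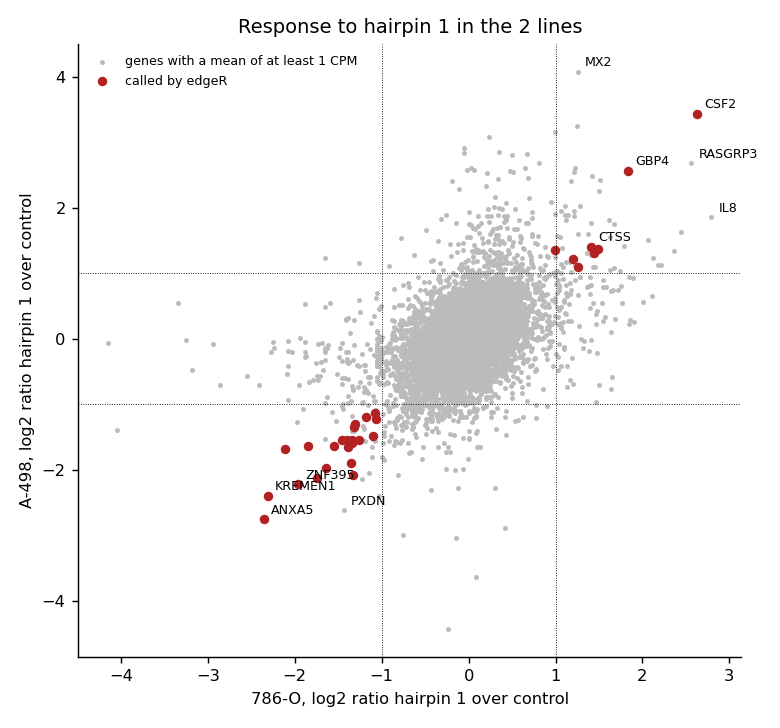
Log2 ratio of hairpin 1 over control in 786-O (x) and A-498 (y) for 13761 genes averaging 1 CPM or more, with called genes in red and dotted lines at 2-fold. Called genes fill the lower left and upper right corners, among uncalled genes of like size such as IL8, RASGRP3 and PXDN.

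Cytokines and chemokines were among the shared increases that did not pass the test. IL8, now named CXCL8, a neutrophil chemokine, stood at 6.96 CPM in the control of 786-O and 48.3 with hairpin 1, and at 25.3 and 91.8 in A-498 (log2 ratios 2.79 and 1.86, adjusted p = 0.196). IL6 stood at 5.88 and 18.8 CPM and at 17.3 and 58.6 (1.67 and 1.76, adjusted p = 0.0714). CCL5, a chemokine for T cells, stood at 2.55 and 6.87 CPM and at 38.5 and 216 (1.42 and 2.49, adjusted p = 0.0714). The monocyte chemokine CCL2 stood at 2.91 and 10.1 CPM and at 59.7 and 160 (1.78 and 1.42, adjusted p = 0.235). All 4 were higher with hairpin 1 in each line, and the controls of CCL2 and CCL5 were far higher in A-498 than in 786-O. With hairpin 3 the 786-O library was high for IL8 (45.1 CPM) and IL6 (17.8), while A-498 stood at 31.0 and 30.9, and IL6 rose with hairpin 3 (log2 fold change 1.23, adjusted p = 0.0288). For CCL2 hairpin 3 gave 4.88 CPM in 786-O, above the control, and 29.1 in A-498, below it, and the hairpins differed (adjusted p = 0.0419). For CCL5 hairpin 3 gave 2.77 and 44.3 CPM, close to the controls, and the hairpins differed (adjusted p = 0.0138).

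The NF-kB inflammatory list held 46 measured genes, of which 37 (80.4%) were positive in both lines and 0 negative in both, beside 30.5% and 31.5% of all genes. Its median log2 ratio was 0.70 in 786-O and 0.54 in A-498, beside 0.00 and -0.01 over all genes. By edgeR 1 of the 46 rose, CSF2, and 0 fell. At an unadjusted p under 0.05 these were 28 and 0, by DESeq2 16 and 0, and in edgeR on the 4 libraries alone 20 and 0. Over all 20144 genes the same counts were 2106 in either direction, 219 up and 247 down, and 246 up and 278 down. They are the background for such counts in every list below. TRAF1, an adaptor of TNF receptors, came nearest after CSF2, at 11.8 and 27.3 CPM in 786-O and 20.2 and 74.2 in A-498 (adjusted p = 0.0656). The feedback inhibitors stood above the control too: NFKBIA, which encodes IkB alpha, had log2 ratios of 0.68 and 0.63, and TNFAIP3, which encodes A20, 1.72 and 0.75. Among the NF-kB subunits NFKB2 had 0.70 and 0.66 and RELB 0.76 and 0.54, while RELA had 0.09 and 0.28. The adhesion receptor VCAM1 had a ratio of 1.30 in 786-O and 0.00 in A-498, and LCN2 had opposite signs (-0.86 and 0.54). IL1B (2.18 and 1.12) and CCL20 (2.76 and 2.04) had large ratios on few reads, with IL1B at 0.0126 and 0.140 CPM in 786-O.

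**Figure D3:**
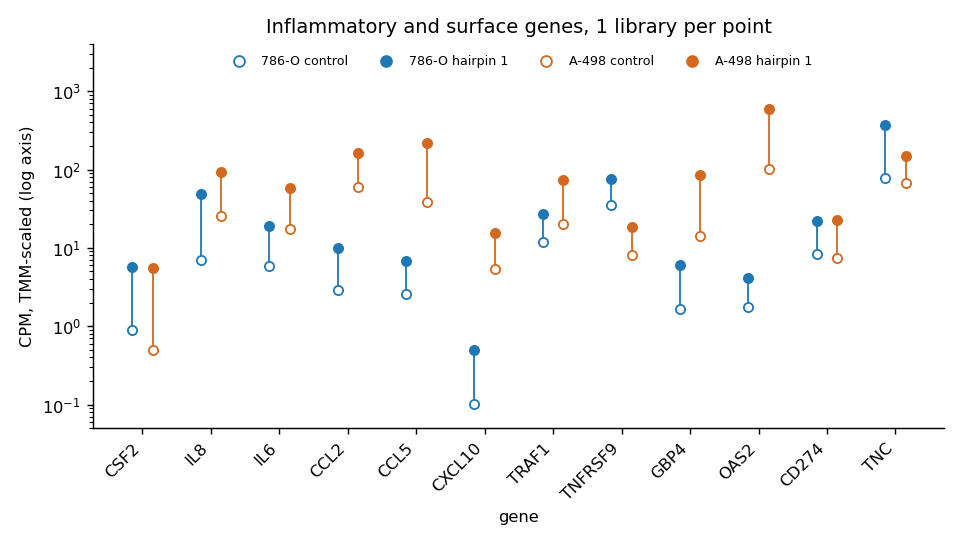
CPM on a log axis of 12 cytokine, interferon and surface genes in the control (open) and hairpin 1 (filled) libraries of 786-O (blue) and A-498 (orange), 1 library per point. Every filled point lies above the open point of its line, while levels of CCL5, CXCL10 and OAS2 differ widely between lines.

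Interferon-stimulated genes were positive in both lines for 48 of 60 (80%) and negative in both for 0, with medians of 0.31 in 786-O and 1.65 in A-498. Of the 60, 60 were positive in A-498 and 48 in 786-O, 6 were at least 2-fold higher in both lines, and 0 of the list passed edgeR's test, while GBP4, an interferon-induced gene that rose, is not a member. At an unadjusted p under 0.05, 45 were up and 0 down, DESeq2 called 22 up and 0 down, and edgeR on the 4 libraries alone 13 and 0. OAS2, which makes the 2-5A activator of RNase L, stood at 1.75 CPM in the control of 786-O and 4.07 with hairpin 1, and at 101 and 588 in A-498 (1.21 and 2.54, adjusted p = 0.126). MX2 stood at 1.18 and 2.85 CPM and at 0.722 and 12.6 (1.26 and 4.08). CXCL10, a ligand of CXCR3, stood at 0.101 and 0.498 CPM and at 5.36 and 15.3 (2.06 and 1.51, adjusted p = 0.132). The ratio of MX2 was much larger in A-498, while that of CXCL10 was larger in 786-O.

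Several abundant members differed by line. IFIT1 stood at 43.4 and 44.1 CPM in 786-O and at 80.4 and 490 in A-498, and ISG15 at 61.7 and 66.8 and at 44.7 and 163. IRF7, a factor that amplifies interferon induction, had ratios of 0.19 and 2.33. IFNB1, interferon beta itself, was at 0.0126 and 0.0255 CPM in 786-O and 0.100 and 0.886 in A-498, with 0.746 in A-498 with hairpin 3. The IFNB1 ratio was 0.44 in 786-O and 2.88 in A-498, chosen for mention after its values were seen, and its adjusted p was 0.132. OASL came nearest to the threshold (0.88 and 1.41, adjusted p = 0.0807), and the hairpins differed for it (adjusted p = 0.0124). The difference between the lines was not tested, since each line has 1 pair of libraries.

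Antigen presentation had smaller medians. Of 21 measured class I genes 14 (66.7%) were positive in both lines and 2 (9.52%) negative, with medians of 0.15 and 0.40 and 0 called. TAP1, which pumps peptides into the endoplasmic reticulum, stood at 70.6 and 106 CPM in 786-O and at 76.5 and 151 in A-498, and NLRC5, the class I transactivator, at 13.4 and 18.3 and at 26.7 and 68.5. HLA-F had ratios of 0.61 and 1.07, while B2M had -0.04 and 0.11. The light chain B2M differed less from the control than the peptide transporter did. At an unadjusted p under 0.05, 9 of the 21 were up and 0 down, and DESeq2 called 3 up and 0 down.

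Checkpoint ligands were among the shared increases. CD274, which encodes PD-L1, stood at 8.37 CPM in the control of 786-O and 21.8 with hairpin 1, and at 7.53 and 22.9 in A-498 (1.38 and 1.60, adjusted p = 0.329). PDCD1LG2, which encodes PD-L2 and was chosen after its values were seen, stood at 3.96 and 9.19 CPM and at 1.02 and 4.03 (adjusted p = 0.390). With hairpin 3 CD274 stood at 35.7 CPM in 786-O and 8.73 in A-498, and PDCD1LG2 at 17.0 and 1.07, so both were high in 786-O and near the control in A-498. Hairpin 1 gave higher levels than the control in both lines for both genes.

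Other large shared increases came from varied functions. RASGRP3, an exchange factor for Ras and Rap, stood at 0.266 and 1.69 CPM in 786-O and at 2.60 and 16.8 in A-498 (2.56 and 2.68, adjusted p = 0.0807). LBH, a transcription cofactor, stood at 0.367 and 2.11 CPM and at 16.3 and 50.9 (adjusted p = 0.178), and SCG5, a chaperone of prohormone convertase 2, at 5.19 and 15.9 and at 0.822 and 2.96 (adjusted p = 0.256). SPOCD1 stood at 10.9 and 47.5 CPM and at 17.3 and 40.6 (adjusted p = 0.196). The matrix glycoprotein TNC, tenascin C, stood at 78.7 and 366 CPM and at 67.9 and 148 (2.22 and 1.13, adjusted p = 0.185). The ratio of RASGRP3 was alike in the lines, and those of LBH, SPOCD1 and TNC were larger in 786-O. In the hairpin 3 libraries RASGRP3 stood at 0.293 CPM in 786-O and 8.23 in A-498, LBH at 0.267 and 28.8, and SCG5 at 25.9 and 1.25. SPOCD1 stood there at 16.1 and 7.71 CPM and TNC at 212 and 60.1, both under the control in A-498.

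Hypoxia-inducible factor targets outside glycolysis mostly had negative ratios. Of 38 measured, 23 (60.5%) were negative in both lines and 7 (18.4%) positive, with medians of -0.11 in 786-O and -0.38 in A-498, and 0 passed edgeR's test. At an unadjusted p under 0.05, 6 were up and 11 down, and DESeq2 called 1 up and 4 down. PLOD2, a lysyl hydroxylase of collagen, stood at 646 CPM in the control of 786-O and 275 with hairpin 1, and at 760 and 173 in A-498 (-1.23 and -2.14, adjusted p = 0.0769). NDRG1 stood at 820 and 389 CPM and at 667 and 227 (-1.08 and -1.56, adjusted p = 0.0769). EGLN3, the prolyl hydroxylase PHD3, stood at 138 and 80.4 CPM and at 193 and 77.7 (adjusted p = 0.105). With hairpin 3 PLOD2 stood at 947 and 651 CPM, NDRG1 at 974 and 872 and EGLN3 at 150 and 146. In 786-O all 3 were above the control, and in A-498 NDRG1 was above it and PLOD2 and EGLN3 were below it. The hairpins differed for each (adjusted p = 0.0105, 0.00899 and 0.0247).

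VEGFA, the angiogenic growth factor, moved little (-0.12 and -0.27), and BHLHE41, a transcriptional repressor, was higher in both lines (0.88 and 1.13, adjusted p = 0.0769). EPAS1, which encodes HIF-2 alpha and was chosen after its values were seen, stood at 158 and 122 CPM in 786-O and at 115 and 78.4 in A-498, and with hairpin 3 at 259 and 208. Its hairpin 1 fold was -0.46 (adjusted p = 0.288), and the hairpins differed (adjusted p = 0.00899). Glycolysis, by contrast, had medians of 0.02 and 0.00 over 24 genes, 8 (33.3%) positive in both lines and 6 (25%) negative. The lactate exporter SLC16A3 was the member with the largest shared ratio, at 184 and 380 CPM and at 141 and 243 (adjusted p = 0.132).

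PXDN, peroxidasin, which forms sulfilimine crosslinks in collagen IV, stood at 35.7 and 13.2 CPM in 786-O and at 1055 and 172 in A-498 (-1.43 and -2.62, adjusted p = 0.162). COLGALT1, a collagen galactosyltransferase chosen after its values were seen, stood at 475 and 205 CPM and at 296 and 118 (-1.21 and -1.33, adjusted p = 0.0797). Neither passed the test. With hairpin 3 PXDN stood at 26.1 and 1184 CPM and COLGALT1 at 529 and 211, and the hairpins differed for both (adjusted p = 0.0340 and 0.0181). COL4A1, a chain of collagen IV, went the other way in both lines, with ratios of 0.64 and 0.64 (adjusted p = 0.178). Over the 36 measured genes of the epithelial-mesenchymal and matrix list, 15 (41.7%) were positive in both lines and 9 (25%) negative, with medians of 0.15 and 0.06. In that list 0 were called by edgeR (6 higher and 4 lower at an unadjusted p under 0.05, 3 up and 1 down by DESeq2).

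**Figure D4:**
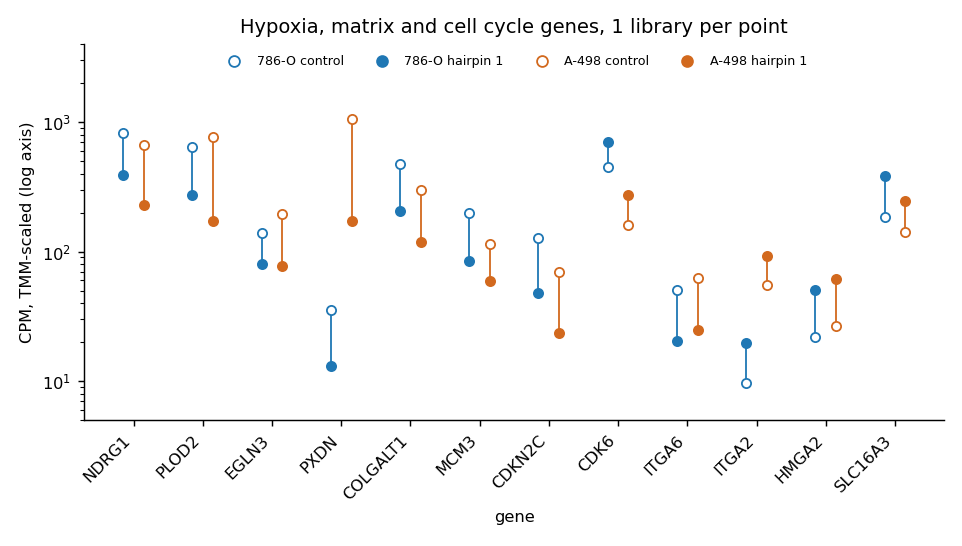
CPM on a log axis of 12 hypoxia, matrix, cell cycle and adhesion genes in the control (open) and hairpin 1 (filled) libraries of 786-O (blue) and A-498 (orange), 1 library per point. Filled points lie under open points in both lines from NDRG1 to CDKN2C and for ITGA6, and above them for CDK6, ITGA2, HMGA2 and SLC16A3.

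Proliferation genes parted by line. Of 42 measured, 29 had opposite signs in the lines, 9 (21.4%) were negative in both and 4 (9.52%) positive in both. The medians were -0.23 in 786-O and 0.24 in A-498, with 0 called (0 higher and 3 lower at an unadjusted p under 0.05, 0 up and 2 down by DESeq2). MCM3, a subunit of the replicative helicase, was the clear member shared by both lines, at 197 and 84.7 CPM and at 115 and 58.9 (-1.22 and -0.97, adjusted p = 0.0821). The helicase partners MCM2 (-0.18 and 0.24) and MCM5 (-0.34 and 0.37) did not share a sign. PCNA, the sliding clamp, had ratios of -0.66 and -0.47, and MKI67, the Ki-67 antigen, -0.19 and 0.28. Among 17 G1 regulators CDKN2C fell and no other passed the test (1 up and 1 down by DESeq2). The target of CDKN2C, CDK6, stood at 448 and 706 CPM and at 160 and 272 (adjusted p = 0.132). Another inhibitor, CDKN1B, which encodes p27, had ratios of -0.42 and -0.75.

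Of 30 targets of p53, 18 (60%) were negative in both lines and 5 (16.7%) positive, with medians of -0.14 and -0.31 and 0 called by edgeR (1 higher and 8 lower at an unadjusted p under 0.05, 0 up and 1 down by DESeq2). TP53INP1 stood at 43.8 and 27.2 CPM in 786-O and at 51.8 and 15.4 in A-498 (adjusted p = 0.370). FDXR, ferredoxin reductase, stood at 35.4 and 23.4 CPM and at 104 and 55.2, and with hairpin 3 at 50.7 and 214, a difference between hairpins that passed the test (adjusted p = 0.0114). The p53 targets of arrest and feedback had smaller ratios, with CDKN1A at -0.05 and -0.49 and MDM2 at 0.44 and 0.00.

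Receptors and their neighbours were described by the same lists. Of 26 receptor tyrosine kinases 14 (53.8%) were negative in both lines and 5 positive, with medians of -0.27 and -0.23 and 0 called by edgeR (2 higher and 7 lower at an unadjusted p under 0.05, 1 up and 3 down by DESeq2). FGFR3 stood at 30.8 and 10.4 CPM in 786-O and at 14.0 and 6.43 in A-498 (-1.57 and -1.12, adjusted p = 0.122), and FGFR2 at 28.4 and 10.3 and at 27.6 and 18.1. FGFR3 was at 7.10 and 5.95 CPM with hairpin 3, a drop that passed edgeR's test (adjusted p = 0.0157). EGFR had ratios of -0.05 and -0.07, and AXL, higher in both, 0.47 and 0.94. Of 27 Wnt receptors and regulators KREMEN1 fell and no other passed (0 up and 2 down by DESeq2), with FZD2, a Frizzled receptor, at -0.69 and -0.70. Of 27 cytokine receptors 9 (33.3%) were positive in both and 8 (29.6%) negative, near the 30.5% and 31.5% of all genes. IL7R stood at 18.6 and 48.9 CPM and at 17.9 and 34.4 (adjusted p = 0.105). In the hairpin 3 libraries IL7R stood at 90.2 and 53.1 CPM, a rise that passed edgeR's test (adjusted p = 0.0120).

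In the lists around these called genes, the called gene was the only member to pass edgeR's test. Among 12 annexins ANXA5 fell and no other passed, although ANXA4 was lower too, at 497 and 310 CPM in 786-O and 845 and 417 in A-498 (adjusted p = 0.257), and ANXA3 was higher (0.33 and 0.34). Among 16 clathrin adaptor genes AP1M1 fell alone by the test. Of the 16, 8 (50%) were positive in both lines and 5 (31.2%) negative, beside 30.5% and 31.5% of all genes. AP2S1, the small subunit of AP-2, had ratios of -0.77 and -1.39 (adjusted p = 0.105), and AP1B1 had 0.34 and 0.34. Among 7 genes of tail-anchored insertion WRB fell, and the cytosolic factors ASNA1 (0.12 and 0.04) and BAG6 (0.09 and 0.17) differed little from the control. Among 30 integrin and focal adhesion genes ITGA6 fell, while the collagen receptor ITGA2 stood at 9.61 and 19.8 CPM and at 55.5 and 93.1 (adjusted p = 0.132). Among 22 dynein and dynactin genes DYNLRB1 rose and no other passed, with DYNLL2 next at 0.46 and 0.39. Among 10 hexosamine genes GFPT2 rose, 7 (70%) were positive in both lines, and UAP1 had ratios of 0.20 and 0.65. Other settings called more members in some of these lists. DESeq2 called, up and down, 0 and 2 annexins, 0 and 2 clathrin adaptor genes, and 1 and 1 integrin and focal adhesion genes. It called 0 and 1 for tail-anchored insertion and 1 and 0 each for dynein and hexosamine genes. EdgeR on the 4 libraries alone called 0 and 3 annexins and 2 and 1 integrin and focal adhesion genes, with the other lists as in DESeq2.

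In the list that holds CTSS, of 36 cathepsins and hydrolases 18 (50%) were negative in both lines and 5 (13.9%) positive, with medians of -0.11 and -0.16, 1 called up and 0 down (3 higher and 5 lower at an unadjusted p under 0.05, 1 and 2 by DESeq2). ASAH1, acid ceramidase, stood at 89.3 and 56.7 CPM in 786-O and at 25.7 and 11.7 in A-498 (adjusted p = 0.135), and CTSB, cathepsin B, at 251 and 186 and at 329 and 181 (adjusted p = 0.196). In the prostaglandin list, where PTGER4 rose, PTGS2, the inducible cyclooxygenase, stood at 0.266 and 0.677 CPM and at 1.72 and 3.78 (adjusted p = 0.183). Of its 13 measured genes 5 (38.5%) were positive in both lines and 2 (15.4%) negative, beside 30.5% and 31.5% of all genes. DESeq2 called 3 of the 13 up and 0 down. HMGA1, the paralog of HMGA2, stood at 5.38 and 14.3 CPM and at 192 and 340 (adjusted p = 0.102). Of the 11 genes of the let-7 list 8 (72.7%) were positive in both lines and 1 (9.09%) negative (2 up and 0 down by DESeq2). Targets of YAP and TEAD were positive in both lines for 13 of 26 (50%) and negative for 6 (23.1%), and DESeq2 called 6 up and 0 down. ANKRD1 stood at 40.8 and 87.8 CPM and at 1.09 and 4.56 (adjusted p = 0.132).

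Cholesterol synthesis had a median of -0.01 in 786-O and 0.63 in A-498 over 24 genes, 12 of them opposite in sign (the difference between lines was not tested), and STARD4, a cholesterol carrier, stood at 87.8 and 103 CPM and at 20.6 and 58.1. Targets of ATF4 had medians of -0.12 and 0.45 over 38 genes, 21 of them opposite. For fatty acid and lipid droplet genes the medians were -0.08 and -0.02, with the elongase ELOVL5 at 295 and 164 CPM and at 161 and 85.2 (adjusted p = 0.102). Nuclear genes of the respiratory chain had 0.02 and -0.06 over 42 genes, and the 13 genes of mitochondrial DNA 0.02 and -0.23. Of 26 NRF2 targets 10 (38.5%) were negative in both lines and 5 (19.2%) positive, beside 31.5% and 30.5% of all genes. The aldo-keto reductase AKR1C2 had the largest shared drop among them, at 0.784 and 0.0255 CPM in 786-O and 395 and 151 in A-498 (adjusted p = 0.307). Among 29 renal tubule genes 14 (48.3%) were negative in both lines and 5 (17.2%) positive, with medians of -0.24 and -0.25. SLC23A1, a vitamin C transporter, stood at 1.92 and 0.766 CPM and at 1.58 and 0.637 (adjusted p = 0.183). In each of these lists edgeR called 0 genes up and 0 down, while over all 20144 genes 2106 had an unadjusted p under 0.05. At that unadjusted p the higher and lower genes numbered 3 and 0 for cholesterol, 6 and 3 for ATF4, 2 and 5 for fatty acids, 0 and 1 for the nuclear respiratory chain, 0 and 0 for mitochondrial DNA, 0 and 3 for NRF2 and 3 and 6 for the renal tubule. DESeq2 called 1 and 0, 1 and 0, 0 and 1, 0 and 1, 0 and 0, 0 and 0, and 1 and 1 of these lists in the same order. On the 4 libraries alone edgeR called 1 and 0, 1 and 0, 1 and 1, 0 and 1, 0 and 0, 0 and 3, and 2 and 2.

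The lists were also read with hairpin 3, against the same controls, as the median of edgeR's log2 folds over both lines. The median was 0.65 with hairpin 1 and 0.36 with hairpin 3 for the NF-kB list, 0.97 and 0.48 for interferon-stimulated genes, and 0.23 and 0.20 for class I genes. It was -0.26 and 0.30 for HIF targets, -0.17 and 0.49 for p53 targets, and 0.30 and -0.79 for cholesterol synthesis, on opposite sides of 0 in these 3 lists. It was 0.20 and 1.01 for ATF4 targets, -0.24 and -1.01 for the renal tubule, -0.29 and -0.19 for receptor tyrosine kinases and -0.13 and 0.02 for lysosomal enzymes. Over all genes it was 0.00 and -0.01, and the differences between list medians were not tested.

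**Figure D5:**
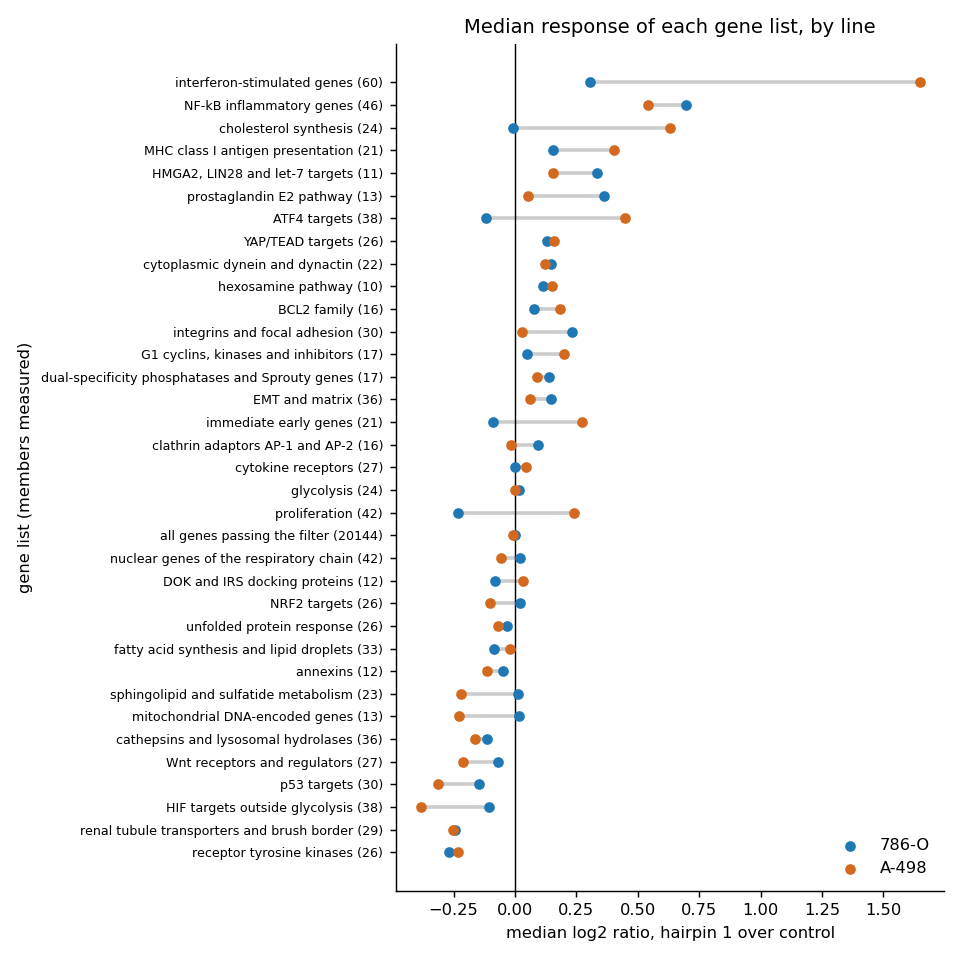
Median log2 ratio of hairpin 1 over control for each gene list in 786-O (blue) and A-498 (orange), with the number of measured members in brackets and all genes for comparison. Interferon-stimulated and NF-kB lists lie to the right in both lines (0.31 and 1.65, 0.70 and 0.54), receptor tyrosine kinase and HIF lists to the left, and proliferation, cholesterol and ATF4 lists have medians apart in the lines.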

How the data were processed

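RNA libraries were made with a TruSeq Stranded Total RNA kit, per the labels' protocols. The authors deposited raw whole-number counts for 32357 gene symbols. STAR and DESeq2, and the builds hg19 and hs37d5, appear in the submitters' processing notes. The sources used here do not name the counting tool, strand setting or annotation. Deposited by the authors next to the counts, and not used, were each gene's mean signal and, from pooled knockdown, a log2 fold change, Wald score and p-value (names per the file headers). The number of columns left unlisted was 0.

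Counts were tested in edgeR 4.0.16 (R 4.3.3) by quasi-likelihood F tests after TMM scaling, with line and construct in the model, all 6 libraries (2 residual degrees of freedom), edgeR's expression filter (20144 genes) and Benjamini-Hochberg adjustment. A call is an adjusted p under 0.05, and standard errors derive from F. The line pairs the libraries because libraries of a line are the same cells. Nothing says that libraries came from separate cultures beyond line and construct, so p-values measure the spread between these libraries. Ratios within a line used a prior count of 2. The script was tested on simulated data. Libraries totalled 77534125 to 99147218 counts. No label gives a batch.

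Named genes are every called gene, the 15 largest shared moves in each direction at a mean of at least 5 CPM, and up to 4 leading members of each of 41 lists. Other list members named in the text were chosen after their values were seen. Of 1006 list members 988 were in the table and 931 passed the filter. The genes, lists and tests were chosen with earlier results of these data known. DESeq2 1.42.0, limma 3.58.1 (voom), RLE scaling, other filters, other libraries and no line term were tried as alternatives.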

Additional observations from a re-analysis of the deposited data

Results flagged for a closer look

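The median log2 ratio of the 42 measured proliferation genes was -0.231 in 786-O and 0.24 in A-498, on opposite sides of 0, with 29 of the genes opposite in sign. It stands out because the library pair of 786-O went one way and that of A-498 the other. With 1 pair in each line, the difference was not tested.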

How the results depend on the processing

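For hairpin 1 against control, 30 genes were called in the model with line and construct. The 4 libraries of the comparison alone gave 524, no line pairing (no replicate block) 0, DESeq2 466, no filter 478 and a mean of at least 5 CPM 13, while limma-voom gave 37 and RLE scaling 30. Leaving out each library in turn gave 2 to 756 genes, with 2 without the A-498 control and 524 and 756 without the 786-O and A-498 hairpin 3 libraries. All 30 genes kept their direction in every setting that kept the gene (CSF2 averages under 5 CPM), and 13 of the 29 with a mean of at least 5 CPM were still called under that filter. For hairpin 3 against hairpin 1, 1910 genes were called, 0 without the pairing (731 at an unadjusted p under 0.05), 2990 with DESeq2, 3117 with no filter, and 645 to 3189 when each library was left out. The 109 genes at least 2-fold different in both lines became 66 at a mean of at least 5 CPM, 243 with no minimum and 486 at 1.5-fold. Causes were not tested. Of 80 list medians under other levels or scaling, 76 moved by no more than the standard deviation of that list's medians in the 2 lines, and 2 changed sign. Where the lines lie far apart, as for interferon-stimulated genes, this limit is wide, so little is read from that count. With 1 or 2 residual degrees of freedom and 1 library per line and construct, the spread between repeat cultures is not known.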
